A study of Mus musculus with 6 samples.

Results

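Small nucleolar RNAs (snoRNAs), small Cajal body RNAs (scaRNAs) and the numbered small nucleolar RNA host genes (Snhg) were followed in mouse melanocytes after transfection with an siRNA against Dicer. Members were the probe sets whose platform annotation gave exactly 1 gene symbol that began with Snord, Snora, Scarna or Snhg and a number, or was Gas5. This rule found 22 of 16383 probe sets. They were 12 box C/D snoRNAs, 4 box H/ACA snoRNAs, 3 scaRNAs and 3 Snhg transcripts, and none had values identical to those of another row. A further 11 probe sets carried such a symbol together with other symbols and are counted but not named. Gas5 had no probe set of its own.

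The cells were Melan-a, an immortal pigmented melanocyte line of C57BL/6 mice, grown with the phorbol ester TPA, which this line needs to proliferate. Cultures received 50 pmol of siDicer or of siScr, taken here as the control siRNA, with lipofectamin and magnetofectamin, and were lysed 24 hours later. Total RNA was extracted with a kit that keeps small RNAs and hybridised to mouse Clariom D arrays. Each group held 3 arrays, 1 from each of passages 47, 54 and 56 of the same line, so every siDicer array had an siScr array of its own passage. Replicate number and passage cannot be told apart. Dicer1 was not analysed here, so the knockdown rests on the labels. Of the melanocyte markers, the pigment enzyme Tyrp1 had a mean log2 signal of 12.8 in siScr, the transcription factor Pax3 10.6 and the melanosome transport protein Mlph 10.3. Of the 6 immune cell markers measured, the leukocyte antigen Ptprc lay at 2.85 in siScr and Cd48 at 2.86. C1qa, Fcer1g, C1qb and Cd52 lay at 5.52, 5.22, 5.08 and 4.74. Background was set at 4.22 log2 units, the 95th percentile of 426 probe sets for odorant and pheromone receptors. These last 4 immune cell markers lay above it. Of the 22 members 18 lay above it, and 57.8% of all probe sets did. The 4 below it were Snord85, Snord90, Scarna8 and Snhg7os.

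SnoRNAs guide the chemical modification of other RNAs in the nucleolus. Box C/D snoRNAs direct 2′-O-methylation with the methyltransferase fibrillarin, and box H/ACA snoRNAs direct pseudouridylation with dyskerin, mostly on ribosomal RNA. ScaRNAs do the same for spliceosomal RNAs in Cajal bodies. Most mammalian snoRNAs lie in introns of a host gene and are released by trimming of the excised intron, so host exons and the snoRNA can reach different levels from the same transcript. Many hosts are ribosomal protein or nucleolar genes, and others, such as the Snhg genes, make noncoding transcripts whose spliced RNA is often short-lived. Dicer is known for cutting microRNA precursors and is not part of the usual route of snoRNA processing, although small RNAs derived from snoRNAs have been described.

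The RefSeq gene table placed 17 of the 19 snoRNA and scaRNA members inside another gene, and Snord89 and Scarna2 inside none. Since the table gives no strand, an enclosing gene is a host by position only. Snord11 and Snord70 lie in Nop58, itself a core protein of box C/D particles, and Snord82 and Snora75 in Ncl, nucleolin. Snord73a lies in Rps3a1, Snora41 in the elongation factor gene Eef1b2, and Snord110 in Nop56. Snord87 lies in Snhg6, Snora16a in Snhg12 and Snora73b in Snhg3.

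Start-site sequences are shown for hosts of members described below, because an intronic snoRNA is transcribed from its host's promoter. They are from RefSeq, build GRCm38.p6, and run 5′ to 3′ on the host's strand. Promoter windows of 300 bases, 250 before and 50 after the start, were found for 13 of the 18 hosts and Snhg members. The letters CCGGAAG, read by factors of the ETS family, were searched on both strands. They occurred in 4 of these 13 windows and in 8.86% of all 32851 windows of the table. The 4 were those of Rps3a1, Eef1b2, Snhg3 and Haus6. In the following 30-base stretches the match is in capitals, and it begins 9 bases before the annotated start of Rps3a1 (chr3:86142659-86142688, minus strand) and at base 2 of Eef1b2 (chr1:63176821-63176850, plus strand).
Rps3a1: gattcttaaagCCGGAAGggcgaaagagca
Eef1b2: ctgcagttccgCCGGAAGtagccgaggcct

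The noncoding hosts Snhg12 (chr4:132308628-132308727, plus strand) and Snhg3 (chr4:132353637-132353736, minus strand) are shown from 50 bases before to 50 bases after the start. In Snhg12 the capitals mark a run of 9 pyrimidines that begins 3 bases before the start, the kind of tract that opens many messengers of the translation machinery. A run of at least 8 within 15 bases of the start was present in 1 of the 13 windows and in 12.0% of all. In Snhg3 the capitals mark the reverse complement of CCGGAAG at base 3, then TATAAA at base 23, which overlaps AANATGGC, the motif of the factor YY1, at base 27.
Snhg12: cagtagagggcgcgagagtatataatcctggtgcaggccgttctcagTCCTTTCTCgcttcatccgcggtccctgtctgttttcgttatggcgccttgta
Snhg3: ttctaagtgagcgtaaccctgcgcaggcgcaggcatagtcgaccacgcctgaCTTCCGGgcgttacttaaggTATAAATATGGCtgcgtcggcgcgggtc
AANATGGC was present in 2 of the 13 windows, those of Eef1b2 and Snhg3, against 6.05% of all. TATAAA was present in 1 of 13, against 13.6%. The E-box CACGTG, read by Myc and related factors, was present in 1 of 13, that of Snx5, against 7.15%. These matches describe letters in a window and not factor binding.

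No snoRNA, scaRNA or Snhg transcript passed the threshold between siDicer and siScr. In limma, with replicate number as a block and Benjamini-Hochberg adjustment over all probe sets, 0 of 22 members had an adjusted p under 0.05, against 0.757% of all probe sets called higher and 0.238% called lower. Without the block it was again 0 of 22, against 0.214% of all probe sets. At an unadjusted p under 0.05, 2 members were higher in siDicer, Snord45b and Snora75, and 0 were lower, against 8.82% and 6.85% of all probe sets. Log2 changes ran from -0.22 for Snord90 to 0.33 for Snora16a, and adjusted p-values from 0.158 to 0.973. Of the 19 snoRNAs and scaRNAs 15 had a positive change, as had 7266 of all 16383 probe sets. The median of the 19 was 0.09, against -0.01 over all probe sets. Without the passage 47 pair the median of the 19 turned to -0.06. The 3 Snhg transcripts had a median change of 0.01. In bulk RNA, fewer cells of a type and less RNA per cell cannot be told apart.

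Most of the positive differences lay in the passage 47 pair. There siDicer was higher in 17 of 19 snoRNAs and scaRNAs, with a median difference of 0.42 log2 units, and in 7765 of all 16383 probe sets. In the passage 54 pair siDicer was higher in 5 of 19, with a median of -0.06, and in 7961 of all probe sets. In the passage 56 pair it was higher in 10 of 19, with a median of 0.01, and in 7314 of all. In 2 of 19 siDicer was higher in all 3 pairs, and the same 2 had groups that did not overlap. Over all probe sets 17.9% were higher in siDicer in all 3 pairs and 15.8% had groups that did not overlap, so the members' shares were near or under the background.

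**Figure D1:**
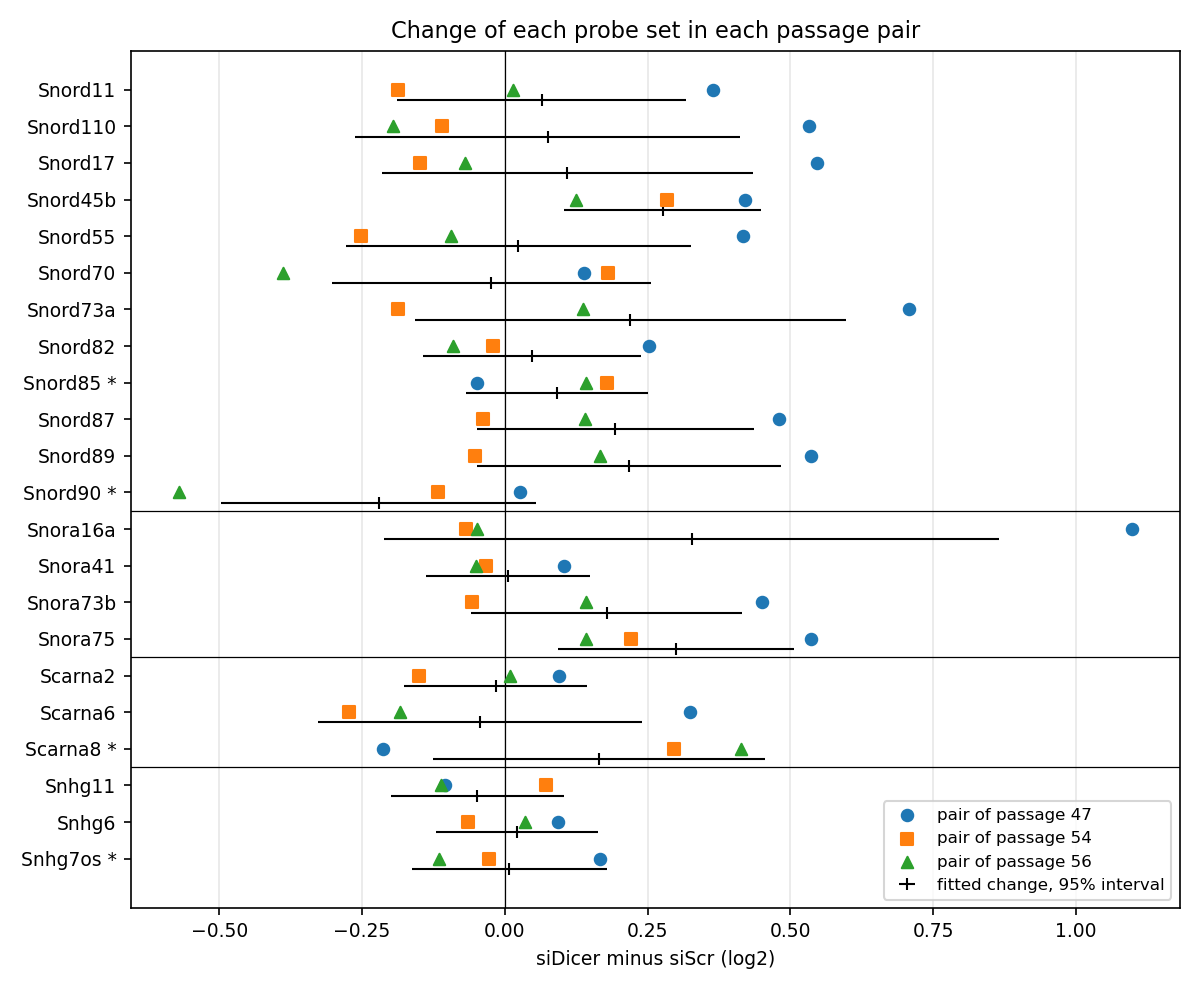
Log2 difference between siDicer and siScr for each of the 22 probe sets, 1 symbol per passage pair, with the fitted change and its 95% interval in black below; an asterisk marks probe sets below the receptor background, and lines part box C/D snoRNAs, box H/ACA snoRNAs, scaRNAs and Snhg transcripts. The passage 47 circles lie right of 0 for 17 of the 19 snoRNAs and scaRNAs, while the passage 54 squares lie left of 0 for 14 of them, and the intervals of Snord45b and Snora75 alone leave out 0.

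Snord45b, a box C/D snoRNA whose enclosing gene is Rabggtb, a subunit of the Rab geranylgeranyl transferase, had log2 signals of 6.92, 7.22 and 7.19 in siScr and 7.34, 7.50 and 7.31 in siDicer (passages 47, 54 and 56). All 3 siDicer arrays were above all 3 siScr arrays. The change was 0.28 ± 0.07 (SE), with a 95% interval from 0.10 to 0.45 and an adjusted p of 0.158 (limma). The adjusted p ran from 0.0825 to 0.393 over the alternatives, so the difference passed in none of them at 0.05.

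Snora75, a box H/ACA snoRNA of the nucleolin gene, had log2 signals of 5.44, 5.88 and 5.88 in siScr and 5.97, 6.10 and 6.02 in siDicer. Here too the groups did not overlap, though the siScr passages 54 and 56 lay within 0.22 of their siDicer partners. The change was 0.30 ± 0.09 (SE), with a 95% interval from 0.09 to 0.51 and an adjusted p of 0.184 (limma; 0.103 to 0.448 over the alternatives).

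The other box C/D snoRNAs above background differed by less. Snord73a, of the ribosomal protein gene Rps3a1, had log2 signals of 6.75, 7.52 and 7.25 in siScr and 7.46, 7.33 and 7.39 in siDicer, a change of 0.22 ± 0.16 (SE). Snord89 was at 6.40, 7.12 and 6.89 in siScr and at 6.94, 7.07 and 7.06 in siDicer, a change of 0.22 ± 0.11. In both, the passage 47 siScr array was the low point and the siDicer arrays lay among the other siScr values. Snord87, of Snhg6, was at 9.34, 9.84 and 9.74 against 9.82, 9.80 and 9.88 log2 units, a change of 0.19 ± 0.10. Adjusted p-values of these 3 were 0.538, 0.398 and 0.408 in limma.

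Snord17 had log2 signals of 9.06, 9.91 and 9.77 in siScr and 9.60, 9.76 and 9.70 in siDicer, a change of 0.11 ± 0.13 (SE). Snord110, of Nop56, was at 9.93, 10.50 and 10.57 in siScr and at 10.47, 10.39 and 10.37 in siDicer, a change of 0.08 ± 0.14. For both, siDicer was higher at passage 47 and lower at passages 54 and 56. Snord55, Snord11 and Snord82 had changes of 0.02, 0.06 and 0.05, and Snord70 had one of -0.02. Their 95% intervals for the mean change, each taken alone, lay between -0.30 and 0.33. Single pairs went beyond that range, with 0.42 for Snord55 at passage 47 and -0.39 for Snord70 at passage 56.

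Snord70 and Snord11 share the host Nop58 but did not have the same array order. Snord70 was highest in the passage 56 siScr array, at 8.01, and Snord11 in the passage 54 siScr array, at 8.59. Snord85 and Snord90 lay below the receptor background, at means of 3.81 and 2.76 log2 units in siScr, so their changes of 0.09 and -0.22 are differences between dim signals.

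Among the 4 box H/ACA snoRNAs Snora16a had the largest change. All 4 changes were positive with all arrays as deposited, but Snora41 turned negative after quantile normalization, and Snora16a and Snora41 did without the passage 47 pair. Snora16a had log2 signals of 7.69, 8.70 and 8.65 in siScr and 8.79, 8.64 and 8.60 in siDicer. Only the passage 47 siScr array stood apart, 1.10 below its siDicer partner, and the other pairs differed by -0.07 and -0.05. The change of 0.33 ± 0.22 (SE) had an interval from -0.21 to 0.87 and an adjusted p of 0.519 (limma). Snora73b, the U17 snoRNA that takes part in cleavage of the ribosomal RNA precursor, was at 8.71, 9.29 and 9.06 in siScr and 9.16, 9.23 and 9.20 in siDicer, a change of 0.18 ± 0.10. Snora41 had a change of 0.01 ± 0.06, with an interval from -0.14 to 0.15.

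The scaRNAs and Snhg transcripts had changes on both sides of 0. Scarna2 was at 9.09, 9.39 and 9.27 in siScr and 9.18, 9.24 and 9.28 in siDicer, a log2 change of -0.02 ± 0.07 (SE), and Scarna6 had one of -0.04 ± 0.12. Scarna8, below background, ran from 3.73 to 4.38 within siDicer alone. Snhg6, a noncoding host transcript, was at 6.33, 6.54 and 6.35 in siScr and at 6.42, 6.48 and 6.39 in siDicer, a change of 0.02 ± 0.06. Snhg11 had a change of -0.05 ± 0.06, and Snhg7os, a transcript annotated opposite to Snhg7, one of 0.01 ± 0.07 below background. Snhg17, which the platform lists under an older symbol and which is therefore no member, had a change of -0.01 ± 0.06.

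The siScr array of passage 47 held the lowest value in all 16 snoRNAs and scaRNAs above background, and over all 19 in 16. Over all probe sets it was the lowest in 17.5%, and over those above background in 22.7%. In these 16 it lay between 0.18 and 0.99 log2 units below the mean of the other 5 arrays, with a median of -0.48. The smallest gap was that of Scarna2 and the largest that of Snora16a. The siDicer array of the same passage was not low: it differed from the later siDicer passages by a median of -0.04, against -0.47 for siScr. The siScr arrays therefore spread far more than the siDicer arrays, with a median SD of 0.30 against 0.06 log2 units, and the siScr SD was the larger in all 16. The RNA integrity number of that array was 10, a value shared by 4 of the 6 arrays. Its smallest correlation with another array over all probe sets was 0.99407, the smallest between any arrays. The siDicer array of passage 54 had the same smallest value, and that of passage 56 had 0.99431. For the siScr arrays of passages 54 and 56 it was 0.99528 and 0.99582, and for the siDicer array of passage 47 0.99537. After quantile normalization or cyclic loess that array was again lowest in all 16, with medians of -0.36 and -0.37. What set this array's values apart was not tested.

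**Figure D2:**
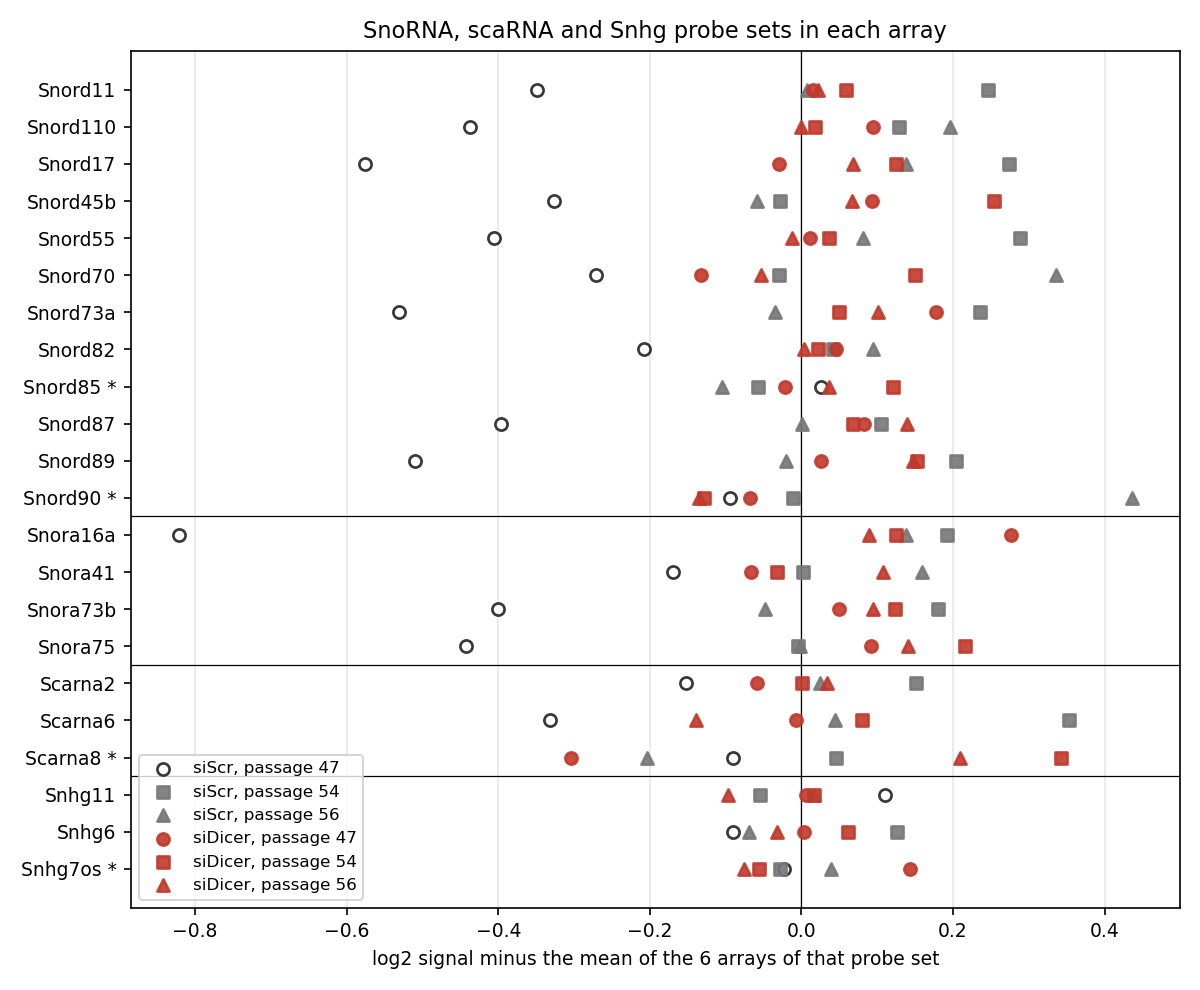
Log2 signal of each of the 22 probe sets in each array, drawn as the distance from that probe set's mean over the 6 arrays; an asterisk marks probe sets below the receptor background, and lines part the classes. The open circles, siScr at passage 47, are the leftmost symbol for all 16 snoRNAs and scaRNAs without an asterisk, and the other 5 arrays crowd near or right of 0.

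Other small nuclear RNAs shared part of this shift. Among 123 snRNA probe sets above background the siScr passage 47 array was lowest in 80.5%, and it lay a median of 0.23 log2 units below the other arrays (-0.23). Of these 123 rows 22 had values identical to another row. Predicted snoRNA gene models had a median of -0.07 over 98 above background, with that array lowest in 32.7%. MicroRNA genes had a median of -0.0001 over 86 and protein-coding genes one of -0.01 over 3448, with the array lowest in 17.4% and 21.5%. A shift beyond -0.2 was found in 15 of 16 snoRNAs and scaRNAs, in 64.2% of the snRNA probe sets and in 10.8% of protein-coding ones. These are counts from 1 array, and no test of the difference between classes can be made.

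**Figure D3:**
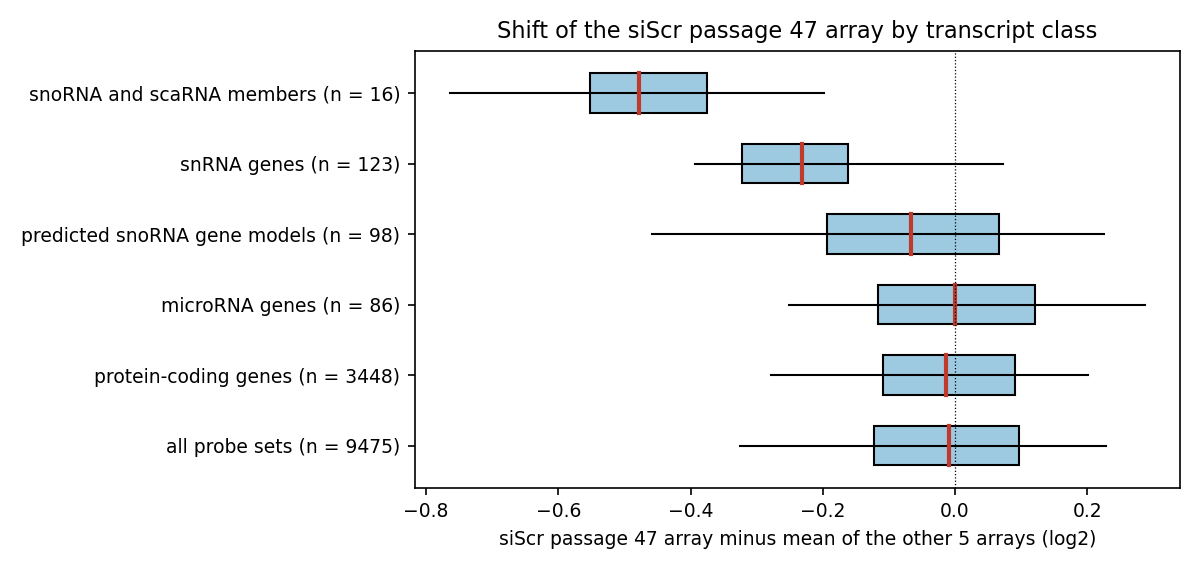
Log2 signal of the siScr passage 47 array minus the mean of the other 5 arrays, by class, for probe sets above the receptor background; boxes span the quartiles, red lines mark medians and black lines run from the 5th to the 95th percentile over probe sets. The snoRNA and scaRNA box, with a median of -0.48, lies left of the snRNA box at -0.23, and the boxes of microRNA and protein-coding genes straddle 0.

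Host messengers and their snoRNAs were compared pair by pair. A probe set naming the enclosing gene alone, and above background, existed for 9 genes, Snhg6 among them, and 0 of the 9 passed the threshold in limma, against 0.995% of all probe sets. At an unadjusted p under 0.05, 2 were higher in siDicer, Snx5 and Atg16l1, and 2 were lower, Nop58 and Ncl, against 8.82% and 6.85% of all. Nop58, a core protein of box C/D particles, had log2 signals of 9.16, 9.75 and 9.29 in siScr and 9.03, 9.42 and 9.21 in siDicer, a change of -0.18 ± 0.07 (SE; adjusted p = 0.277, limma). It was lower in siDicer in all 3 pairs, whereas Snord11 in its intron had differences of 0.36, -0.19 and 0.01, and Snord70 of 0.14, 0.18 and -0.39.

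Ncl, nucleolin, a ribosome assembly protein, had log2 signals of 10.24, 10.44 and 10.37 in siScr and 10.07, 10.31 and 10.24 in siDicer. Its differences of -0.18, -0.13 and -0.13 were all below 0 (change -0.14 ± 0.05; adjusted p = 0.276, limma). Its snoRNA Snora75 had 3 differences above 0, of 0.54, 0.22 and 0.14, and the other, Snord82, had 0.25, -0.02 and -0.09. The passage 47 siScr array lay 0.04 below the other arrays for Ncl (-0.04), but 0.25 below for Snord82 (-0.25) and 0.53 below for Snora75 (-0.53).

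Snx5, a sorting nexin of endosomes that encloses Snord17, was at 8.18, 8.35 and 8.28 in siScr and 8.48, 8.71 and 8.66 in siDicer. It had the largest change of these hosts, 0.34 ± 0.05 (SE), with groups that did not overlap and an adjusted p of 0.0539 with the block and 0.186 without it (limma). It passed after centring the arrays on their medians (0.0472), with eBayes trend (0.0238) and among levels above the median (0.0225). Snord17 itself differed by 0.55, -0.15 and -0.07 in the 3 pairs. Eef1b2 and Rps3a1 had changes of 0.10 and 0.07, Atg16l1, an autophagy protein that encloses Scarna6, one of 0.19, Haus6 -0.07 and Rc3h2 -0.02. Whether a snoRNA and its host differed in change was not tested, since their probe sets have different sensitivity.

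**Figure D4:**
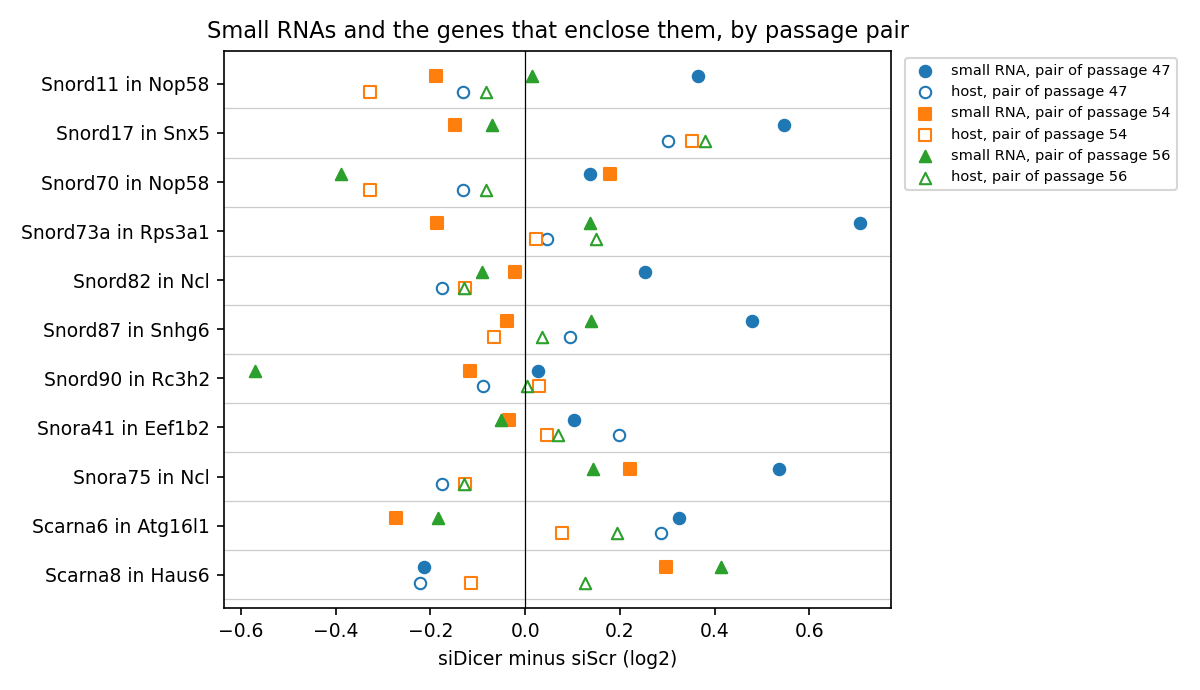
Log2 difference between siDicer and siScr in each passage pair for 11 snoRNAs and scaRNAs (filled symbols) and for the gene that encloses each (open symbols), among hosts with a probe set of their own above background. Snord90 and Scarna8 themselves lay below background. The filled circles of passage 47 lie to the right of the open circles for Snord17, Snord73a, Snord87, Snora75 and others. For Snora41 in Eef1b2 the filled circle lies to the left, at 0.10 against 0.20. Nop58 and Ncl have all 3 open symbols left of 0.

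Of the genes that build or process these particles, 1 changed, Xrn2. This nuclear 5′ to 3′ exoribonuclease trims snoRNA ends and degrades RNA during transcription termination. It had log2 signals of 8.74, 8.97 and 8.93 in siScr and 8.15, 8.34 and 8.35 in siDicer, a fall by 0.60 ± 0.05 (SE; adjusted p = 0.0231, limma). All siDicer arrays lay below all siScr arrays. It did not pass without the passage 54 pair (adjusted p = 0.149) or the passage 56 pair (adjusted p = 0.113), where no probe set of the array did. Of the 6 snoRNA-processing and RNA-turnover genes measured from a list of 16, 0 rose, 1 fell and the other 5 missed the threshold. Of all probe sets 0.757% were called higher and 0.238% lower, and the list's median was -0.03. Exosc9, a subunit of the RNA exosome, had a change of -0.22 (adjusted p = 0.158) and Exosc3, another subunit, one of 0.10 (adjusted p = 0.468).

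Of the remaining particle genes 0 passed, against 0.995% of all probe sets. Of 8 core proteins 3 were measured, Nop58, Nop10 and Gar1, with a median of -0.05; Nop10 and Gar1, proteins of box H/ACA particles, had changes of 0.04 and -0.05. The assembly factor Znhit6, the 1 measured of 13, had a change of -0.11 (adjusted p = 0.541). The 3 measured factors of nonsense-mediated decay, the pathway that removes many spliced Snhg transcripts, were Rbm8a at -0.16 (adjusted p = 0.253), Upf2 at -0.06 and Smg5 at -0.05. The 5 ribosomal RNA transcription and nucleolar factors all had negative changes, with a median of -0.09, as had 9110 of all 16383 probe sets. The 5 were led by Ncl, the polymerase subunit Polr1e at -0.14 (adjusted p = 0.319, limma) and the processing factor Wdr12 at -0.09.

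Genes known to host snoRNAs had a median change of 0.02 over 6 measured of 38, and 0 passed, against 0.995% of all probe sets. Rps20, a ribosomal protein gene, had a change of 0.14 (adjusted p = 0.402), and Ncl and Nop58 are given above. All 9 cytosolic ribosomal protein genes measured had positive changes, as had 7266 of all 16383 probe sets. The median of the 9 was 0.06 and 0 passed, against 0.995% of all probe sets. The smallest p-values belonged to Rpl37a, with a change of 0.17, Rpl22, with one of 0.11, and Rps20. The siScr passage 47 array was the lowest in all 9, with a median of -0.22 against the other arrays. Among all probe sets above background it was the lowest in 22.7%. After quantile normalization or cyclic loess 8 of the 9 changes were positive, and that array was the lowest in 5. In these genes the early siDicer array was lower than the later ones by a median of 0.09 (-0.09), against -0.20 in siScr.

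Between replicate numbers, which go with passage, 0 of 22 members passed in the F test of the same limma fit, with adjusted p-values from 0.303 to 0.865, against 0.586% of all probe sets. At an unadjusted p under 0.05 there were 3 members, against 14.5% of all. Snora41 had the smallest p, 0.034, with means over both arrays of 5.81, 5.91 and 6.06 log2 units at passages 47, 54 and 56. In these cells its level was lowest at passage 47 in both groups. The others were Snord17, with means of 9.33, 9.83 and 9.74, and Snord89, with means of 6.67, 7.09 and 6.98, where the low mean at passage 47 came chiefly from the siScr array.

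The 11 probe sets that carried a member symbol with others gave 0 calls in limma, against 0.995% of all probe sets. At an unadjusted p under 0.05, 4 were higher and 1 was lower, against 8.82% and 6.85% of all. Their median change was 0.15, and the siScr passage 47 array was lowest in 7 of 11, against 17.5% of all.

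Markers of other cell types did not pass, apart from Schwann lineage genes that melanocytes can share. Of 4 fibroblast markers measured 0 were called, against 0.995% of all probe sets. Mean log2 levels over the list ran from 5.75 to 5.97 in siScr arrays and 5.84 to 6.06 in siDicer arrays. Keratinocyte markers had 0 of 2 (4.71 to 4.75 and 4.61 to 4.70), and immune cell markers 0 of 6 (4.35 to 4.39 and 4.16 to 4.29). Of the 2 Schwann and glial markers measured, Cdh19 rose by 0.55 (adjusted p = 0.0304, limma; 0.138 without the block) and Pmp2 fell by 0.95 (adjusted p = 0.0209; 0.114 without the block); neither passed without the passage 54 or the passage 56 pair. Their part in the snoRNA values was not tested.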

How the data were processed

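The deposited values are log2 signals per transcript cluster, which the submitters' processing notes credit to Expression Console; its version, background correction and normalization were not given in the sources used here. Array medians lay between 4.58 and 4.64. Normalization that equalises arrays can hide a shift shared by most transcripts, and dim signals are compressed. Of the 16383 probe sets 7530 had 1 symbol, 455 several and 8398 none. The fit used lmFit and eBayes (limma 3.58.1, R 4.3.3) on all probe sets, with replicate number as a block and Benjamini-Hochberg adjustment. The pairing comes from the passages in the labels. Deviations from group means correlated between same-numbered arrays with r of 0.44, 0.41 and 0.24. For genes with several probe sets the one of highest mean was used. The procedure was tested on simulated data. Members, lists and tests were chosen with earlier results of these data known. Named were all members, enclosing genes, and in each list those past the threshold and the 3 of smallest p. The alternatives were other normalizations, filters, weights and thresholds, a fit without the block, and leaving out pairs. The number of arrays limits the precision.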

Additional observations from a re-analysis of the deposited data

How the results depend on the processing

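No member passed the threshold in limma under any of the 12 planned or 6 added alternatives, with 0 to 6 members at an unadjusted p under 0.05. Leaving out single arrays without the block, and the counts of lowest arrays under other scalings, were chosen after seeing the data. Probe sets past the threshold numbered 163 with the replicate block and 35 without it, 84 after quantile normalization, 93 after cyclic loess, 388 for levels above the median, 302 with trend and 378 at 0.1. They ran from 0 to 157 without 1 pair (2171 and 1814 at an unadjusted p under 0.05 without replicates 2 and 3) and 7, 20, 0, 0, 4 and 0 without 1 array. Between replicate numbers, 96 became 63 after quantile normalization, 172 above the median, 145 with trend, 193 at 0.1 and 19 to 114 without 1 pair. The snoRNA median ran from -0.06 to 0.17 without 1 pair and from -0.04 to 0.20 without 1 array. Changes turned in sign after quantile normalization for Snord55 (-0.04) and Snora41 (-0.012), and after cyclic loess for Snord55 (-0.026). Without 1 pair, changes ran from -0.086 to 0.19 for Snord11, -0.15 to 0.21 for Snord110, -0.11 to 0.24 for Snord17, -0.17 to 0.16 for Snord55, -0.025 to 0.42 for Snord73a, -0.056 to 0.12 for Snord82, -0.058 to 0.52 for Snora16a, -0.042 to 0.035 for Snora41, -0.015 to 0.065 for Snhg6, -0.071 to 0.070 for Snhg7os, -0.071 to 0.052 for Scarna2, -0.23 to 0.071 for Scarna6 and -0.13 to 0.16 for Snord70. Of these 13, 10 turned in sign without the passage 47 pair. Among the other named genes, signs turned for Pax3 after quantile normalization (-0.043), for Pax3 (-0.041) and Tyrp1 (-0.032) after cyclic loess, and without 1 pair for Pax3 (-0.0089 to 0.013), Haus6 (-0.17 to 0.0056), Rc3h2 (-0.042 to 0.017) and Smg5 (-0.10 to 0.016). The fit without the block changed no member's call. The causes of these shifts were not tested.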
